A study of Mus musculus with 6 samples.

Results

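The adipocyte and brown fat genes are a set of 10: Adipoq, Retn, Cfd, Plin1, Cidec, Lpl, Fabp4, Pparg, Ucp1 and Cidea. Each was looked up by symbol among the probe sets to which the platform annotation gives exactly 1 gene, and the probe set with the highest mean over all arrays would stand for a gene with several. This gave 9 of the 10 genes, each with 1 probe set, among 19938 genes in all, while Cfd had no such probe set and is not analysed here. The data came from larger proximal airways cut out by hand from stained frozen lung sections of 9-week-old mice on a mix of the C57BL/6 and 129X1 strains. In the 3 control samples the genotype was Scgb1a1-Cre alone. In the 3 mutant samples the same Cre acted on both alleles of floxed Foxp1 and of floxed Foxp4, which encode forkhead transcription factors. All 6 samples thus carried the Cre. Its Scgb1a1 promoter is known to work in club cells, the secretory cells lining the airway, and which cells of these samples had lost the floxed genes was not measured. Each sample was hybridised to 1 array, and values are log2 expression values, on which a step of 1 is a doubling.

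White adipocytes store triglyceride in 1 large lipid droplet and secrete hormones called adipokines, whereas brown adipocytes hold many small droplets and burn fat to make heat. The nuclear receptor PPARγ, encoded by Pparg, switches on most genes of both cell types. In the chest, fat lies around the large airways and vessels at the root of the lung and in the mediastinum, where part of it is brown. Several of the genes are also active outside fat: Lpl in heart muscle and macrophages, Fabp4 in capillary endothelium and macrophages, and Pparg in alveolar macrophages and in some epithelia.

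The main result was that these genes differed widely between arrays of the same genotype and not detectably between genotypes. Control 1 gave the highest value of all arrays for 7 of the 9 genes, and mutant 2 gave the highest for the other two. Control 2 was lowest for 5 genes, mutant 3 for 2 and control 3 for 2. Control 1 led the controls and mutant 2 led the mutants for 8 of the 9 genes, Cidea being the exception. The same pair of arrays led for 15.7% of all genes. RNA from a dissected piece of tissue mixes many cells, so fewer adipocytes and less RNA per adipocyte cannot be told apart.

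The labels were checked first. Foxp1 averaged 9.53 ± 0.10 (SD, n = 3) in controls and 9.30 ± 0.05 in mutants, and Foxp4 8.91 ± 0.13 and 8.22 ± 0.40. For both genes every mutant lay below every control, and neither difference, -0.23 and -0.69, passed the test (limma adjusted p = 0.444 and 0.339). Where these probe sets lie relative to the floxed exons is not known here, and a probe set outside them checks nothing. Airway genes were read on every array: Scgb1a1, the club cell secretoglobin gene, between 12.1 and 12.6, and Foxj1, the ciliated cell regulator gene, between 8.27 and 9.10. Sftpc, a gene of alveolar type 2 cells, read between 12.4 and 12.8. These values therefore cannot tell proximal airway from other lung tissue. Array medians lay between 5.89 and 5.95 and lower quartiles between 4.42 and 4.50. With 3 arrays per genotype, precision is limited by their number and by the spread of a gene within a genotype. The labels do not say whether each sample came from its own mouse, so the p-values may rest partly on technical spread.

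The DNA in front of the start is shown for 4 genes: Ucp1, Adipoq, Retn and Plin1. These are the measured genes that have a single start in the RefSeq promoter table. The table held 7 of the 10 genes. Each sequence is the 250 bases before the start, read 5′ to 3′ on the strand of the gene, in build GRCm38.p6. Capitals mark motif matches found on either strand: AGGTCA, the half-site of nuclear receptors such as PPARγ with its partner RXR; TTGCNNAA, a core form of the site of C/EBP factors, which act with PPARγ in fat cells; CCAAT; and the TATA box forms TATAAA and TATATA, which can overlap each other.
Ucp1, chr8:83290098-83290347, plus strand: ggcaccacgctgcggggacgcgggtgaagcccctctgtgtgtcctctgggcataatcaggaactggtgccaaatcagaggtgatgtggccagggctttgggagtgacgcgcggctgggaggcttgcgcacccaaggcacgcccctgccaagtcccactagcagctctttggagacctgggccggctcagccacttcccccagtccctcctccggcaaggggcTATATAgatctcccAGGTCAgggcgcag
Adipoq, chr16:23146286-23146535, plus strand: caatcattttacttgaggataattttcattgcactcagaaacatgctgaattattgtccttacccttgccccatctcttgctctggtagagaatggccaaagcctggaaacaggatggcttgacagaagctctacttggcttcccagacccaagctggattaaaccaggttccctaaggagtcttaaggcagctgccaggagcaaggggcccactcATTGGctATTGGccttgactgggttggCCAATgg
Retn, chr8:3655520-3655769, plus strand: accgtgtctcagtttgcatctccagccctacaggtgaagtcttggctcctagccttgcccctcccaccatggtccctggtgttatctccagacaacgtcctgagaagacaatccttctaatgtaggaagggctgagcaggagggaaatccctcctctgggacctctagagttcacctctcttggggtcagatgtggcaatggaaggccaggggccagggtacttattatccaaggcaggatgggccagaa
Plin1, chr7:79732777-79733026, minus strand: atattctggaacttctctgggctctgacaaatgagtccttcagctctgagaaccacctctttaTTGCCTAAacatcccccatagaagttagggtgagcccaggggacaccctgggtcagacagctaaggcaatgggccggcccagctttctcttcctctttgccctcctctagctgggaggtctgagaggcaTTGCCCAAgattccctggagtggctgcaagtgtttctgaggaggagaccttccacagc

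The 4 windows shared none of the searched motifs. Ucp1 had TATATA from position -28 to -23 and AGGTCA from -14 to -9, counted back from -1 at the base before the start. Adipoq had 3 matches to CCAAT, starting at -34, -27 and -7, the first 2 of them on the opposite strand. Plin1 had 2 matches to TTGCNNAA, starting at -187 and -58, and Retn had no match. Among all 32851 promoter windows of that length, AGGTCA was present in 14.0%, TTGCNNAA in 9.56%, CCAAT in 33.8%, TATAAA in 12.4% and TATATA in 5.25%. A match describes letters only and is not evidence of binding.

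Ucp1 encodes uncoupling protein 1, the mitochondrial carrier that lets brown adipocytes release energy as heat. Its control values were 8.42, 4.82 and 4.84, and its mutant values were 4.89, 6.68 and 4.82. Control 1 and mutant 2 thus stood out in their groups, and the other 4 arrays lay between 4.82 and 4.89. Those 4 values were only 0.32 to 0.40 above the lower quartile of their own arrays. The highest control exceeded the lowest 12.2-fold and the highest mutant exceeded the lowest 3.62-fold, both folds being as measured against a value near the bottom of the scale. The group means were 6.03 ± 2.08 and 5.46 ± 1.05 (SD, n = 3 each). The log2 difference, mutant minus control, was -0.57 with a 95% interval from -3.11 to 1.97 (SE 1.06, limma adjusted p = 0.925).

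Adipoq encodes adiponectin, a hormone made almost only by adipocytes. The controls read 10.3, 7.17 and 8.31 and the mutants 8.31, 9.46 and 7.95. The ranges overlapped, with both extremes among the controls, where the highest value was 8.97-fold above the lowest. The means were nearly equal, at 8.60 ± 1.60 and 8.57 ± 0.79, and the log2 difference was -0.03 (95% interval -1.98 to 1.92, adjusted p = 0.994). Retn, the gene of the adipokine resistin, read 9.24, 6.50 and 7.47 in controls and 7.72, 8.65 and 6.91 in mutants. Control 1 and mutant 2 were again the highest in their groups, and the difference was 0.02 (95% interval -1.77 to 1.81, adjusted p = 0.996).

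**Figure D1:**
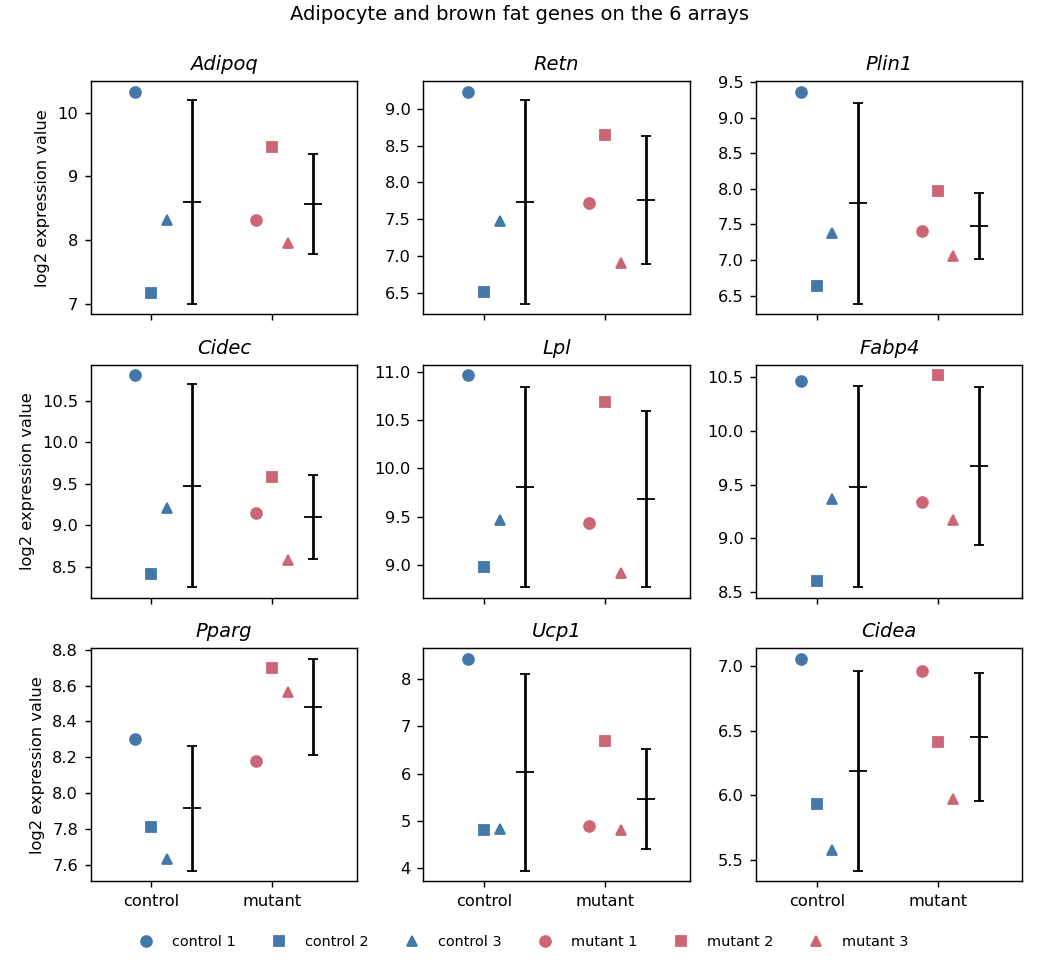
Log2 expression values of the 9 measured genes (1 panel each, with its own vertical axis) on the 3 control and 3 mutant arrays; the bar beside each group is the mean and its SD. Control 1 is the highest control in every panel, and for Ucp1 it reads 8.42 where the other controls read 4.82 and 4.84.

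Plin1 and Cidec encode lipid droplet proteins and followed the same arrays. Perilipin 1, from Plin1, coats the droplet of adipocytes and gates the access of lipases to it. Plin1 read 9.36, 6.64 and 7.39 in controls and 7.41, 7.97 and 7.06 in mutants, so all 3 mutants lay inside the range of the controls. The difference was -0.32 (95% interval -1.94 to 1.31, adjusted p = 0.935). Cidec, whose product fuses droplets into larger ones, read 10.8, 8.41 and 9.20 in controls and 9.14, 9.58 and 8.58 in mutants. Here too every mutant value fell within the range of the controls, and the difference was -0.37 (95% interval -1.82 to 1.08, adjusted p = 0.909).

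Lpl and Fabp4 serve the uptake of fatty acids. Lipoprotein lipase, from Lpl, frees fatty acids from circulating triglyceride, and the FABP4 protein carries them inside the cell. Lpl read 11.0, 8.98 and 9.47 in controls and 9.44, 10.7 and 8.92 in mutants, with 1 high array in each group. The difference was -0.12 (95% interval -1.63 to 1.39, adjusted p = 0.975). Fabp4 was the one gene of these first 7 for which mutant 2 was the highest of all arrays. It read 10.5, 8.61 and 9.37 in controls and 9.34, 10.5 and 9.17 in mutants, a difference of 0.19 (95% interval -1.11 to 1.50, adjusted p = 0.952).

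Pparg behaved differently from the other genes. Its controls read 8.30, 7.81 and 7.63 and its mutants 8.18, 8.70 and 8.56. Both of the highest values were mutant, both of the lowest were control, and the groups overlapped only because control 1 lay above mutant 1. The difference was 0.57 (1.48-fold, SE 0.21, 95% interval 0.06 to 1.07), with an unadjusted p of 0.0335 that did not survive adjustment over all genes (limma adjusted p = 0.452). Pparg was higher in mutants under all 14 other settings, by 0.43 to 0.76. The replicate block, intensity trend, filter and mean of rows left the difference at 0.57, and all settings reuse the same arrays. Its limma adjusted p lay between 0.0912 and 0.796, so Pparg passed under none. Beside it, marker genes of alveolar macrophages, where Pparg is also active, averaged 7.43, 7.43 and 7.55 over 10 of 14 listed genes on the control arrays and 7.55, 7.95 and 7.39 on the mutant arrays. Of those 10 markers 6 were higher in mutants, 0 passed and the median difference was 0.08. An unadjusted p under 0.05 was found for 2, Chil3 with a difference of 0.81 and Atp6v0d2 with 0.73, against 10.1% of all genes. Groups did not overlap for 3, Atp6v0d2, Marco at 0.47 and Abcg1 at -0.25, against 15.0% of all genes. Alveolar type 2 markers, all 9 measured, averaged 10.7 to 10.8 in controls and 11.0 to 11.1 in mutants, and 8 of the 9 were higher in mutants, none past the test. Over all genes, 54.6% were higher in mutants and 0.266% passed. Of the 9 type 2 markers, 4 had an unadjusted p under 0.05, against 10.1% of all genes. Groups did not overlap for 5 of these markers, against 15.0% of all genes. The part of these cells in the Pparg difference was not tested.

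Cidea encodes a droplet protein of the same family as Cidec and is known as a brown fat gene. Its controls read 7.06, 5.93 and 5.58 and its mutants 6.96, 6.41 and 5.97. In contrast to the other 8 genes, mutant 1 rather than mutant 2 was the highest mutant. The groups overlapped and the difference was 0.26 (95% interval -0.75 to 1.28, adjusted p = 0.909).

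No gene of the set passed limma's test at an adjusted p under 0.05, where 0.266% of all genes did. At an unadjusted p under 0.05 there was 1 of 9, Pparg, against 10.1% of all genes. None of the 9 had groups that did not overlap, against 15.0% of all genes. The median log2 difference of the set was -0.03, with 4 genes above 0 and 5 below, beside a median of 0.02 over all genes. Leaving out control 1 turned that median to 0.69 with all 9 genes above 0, and still called 0 of the 9, where 1.95% of all genes were called and 1 of the 9 had an unadjusted p under 0.05. Leaving out control 2 moved the median to -0.60, control 3 to -0.18, mutant 2 to -0.47 and mutant 3 to 0.28. The direction of the set therefore depended on which arrays were averaged.

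**Figure D2:**
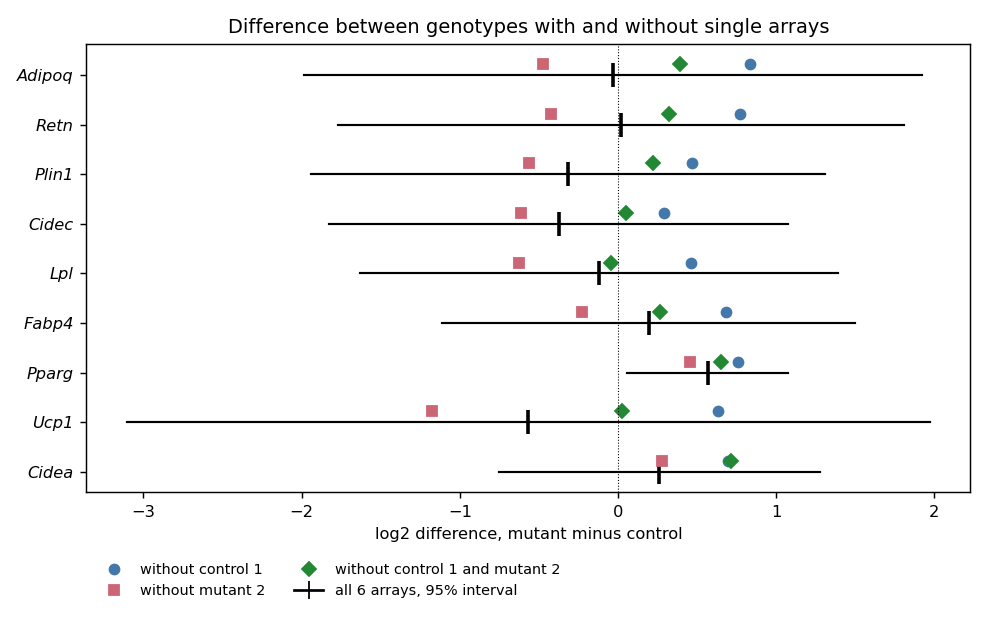
Log2 difference between mutant and control means for each gene; the black tick and line give all 6 arrays with limma's 95% interval, and the coloured symbols give the difference without control 1, without mutant 2 and without both. Every interval but that of Pparg spans 0, and without control 1 all 9 differences lie above 0.

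The spread within a genotype can be set against that of other genes. The within-group SD from the fit was 1.65 for Ucp1, larger than for 99.9% of the genes on the array, whose median was 0.15. It was 1.26 for Adipoq, 1.16 for Retn, 1.05 for Plin1, 0.97 for Lpl, 0.93 for Cidec and 0.84 for Fabp4, each larger than for at least 98.8% of genes. Cidea had 0.65 and Pparg 0.31, larger than for 97.7% and 86.9%. The spread was thus high throughout the set, least for Pparg and next for Cidea.

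Likeness within the set was measured as Pearson's r between a gene and the mean of the other 8, each centred on its own mean, over the 6 arrays. The 6 points share the dissection, so this describes these arrays only. It was 0.99 for Adipoq, 0.98 for Retn, 0.97 for Plin1, 0.96 for Lpl, 0.95 for Cidec and 0.94 for both Fabp4 and Ucp1, but 0.67 for Cidea and 0.44 for Pparg. Without control 1 it stayed between 0.87 and 0.98 for the first 7 and was 0.39 for Cidea and 0.57 for Pparg. Ucp1 read between 4.82 and 4.89 on every array but control 1 and mutant 2, near the bottom of the scale. Its r therefore rests on those 2 arrays. The others of the first 7 genes rose and fell over the arrays nearly in step, and Cidea and Pparg followed them less closely.

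Other genes of adipocytes were read from a list of 42, of which 41 were measured. None passed limma's test over all genes, where 0.266% of all genes did. An unadjusted p under 0.05 was found for 4, close to the 10.1% of all genes. Groups did not overlap for 4, which is below the 15.0% of all genes. The median difference was -0.06, with 17 genes above 0 and 24 below. Control 1 led the controls and mutant 2 the mutants for 30 of the 41 (73.2%), against 15.7% of all genes. Most of the list thus followed the arrays that were high in Adipoq and Ucp1. Pck1, Thrsp and Car3 had the widest spread. Pck1, whose enzyme serves the making of glycerol phosphate for triglyceride, read 10.1, 6.72 and 7.47 in controls and 8.09, 8.60 and 6.85 in mutants. Thrsp, a regulator of lipid synthesis, read 9.95, 7.18 and 7.67 against 7.99, 9.05 and 7.31. Car3, a carbonic anhydrase abundant in fat, read 12.3, 9.68 and 10.8 against 10.6, 11.6 and 10.3. In all 3 genes control 1 was highest and mutant 2 second, and the differences between genotypes were -0.26, -0.15 and -0.12.

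The 5 adipocyte list genes with the smallest p were Sncg, Bscl2, Abhd5, Cd36 and G0s2. Sncg encodes γ-synuclein, known from adipocytes and from peripheral neurons. It read 8.61, 8.33 and 8.32 in controls and 7.52, 7.45 and 6.90 in mutants, so every mutant lay below every control. The difference was -1.13 (SE 0.18, 95% interval -1.57 to -0.69, unadjusted p = 0.00063), and it did not pass over all genes (limma adjusted p = 0.104). It did pass with array weights (adjusted p = 0.0340) and without control 1 and mutant 2 together (adjusted p = 0.0434), and over the 14 other settings its adjusted p ranged from 0.0340 to 0.302. Those 2 settings called 1.46% and 4.83% of all genes, and the pair was picked because earlier results showed it high. Bscl2, the seipin gene needed to form lipid droplets, differed by -0.28 (adjusted p = 0.413) with groups that did not overlap. Abhd5, a co-activator of triglyceride lipase, differed by 0.39 and Cd36, a fatty acid transporter gene also strong in endothelium and macrophages, by 0.38, with adjusted p of 0.466 and 0.485. G0s2, an inhibitor of triglyceride lipase, differed by -0.75 (adjusted p = 0.610), its controls reading 9.97, 8.52 and 8.47 and its mutants 8.23, 8.40 and 8.08. Without control 1 the G0s2 difference was -0.26.

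Brown fat genes were read from a list of 28, of which 24 were measured. None passed limma's test, where 0.266% of all genes did, and 0 had an unadjusted p under 0.05, where 10.1% of all genes did. The median difference was -0.09, with 10 above 0 and 14 below. Control 1 and mutant 2 led their groups for 10 of the 24 (41.7%), against 15.7% of all genes. Widest in spread were Cox8b and Cox7a1, which encode subunits of cytochrome oxidase typical of brown fat and of heart, and Fabp3, a fatty acid carrier of the same tissues. Cox8b read 11.4, 8.13 and 9.46 in controls and 9.58, 10.1 and 8.07 in mutants. Fabp3 read 11.1, 8.54 and 9.53 against 9.20, 10.5 and 7.78, and Cox7a1 read 9.93, 7.59 and 8.42 against 8.52, 9.71 and 7.44. Control 1 was the highest control and mutant 2 the highest mutant for all 3 genes, and mutant 3 was the lowest array. The differences were -0.40, -0.57 and -0.09, none past the test.

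The 5 brown fat list genes with the smallest p were Ppargc1a, Dio2, Acadm, Ppargc1b and Ppara. Ppargc1a, the co-activator of mitochondrial genes, read 8.58, 7.82 and 7.58 in controls and 7.41, 7.82 and 7.29 in mutants, a difference of -0.48 (adjusted p = 0.638), and its second probe set differed by -0.22. Without control 1 the Ppargc1a difference was -0.19. The differences were -0.10 for its relative Ppargc1b, -0.32 for Ppara, a receptor that drives fatty acid oxidation, and 0.25 for Dio2, which activates thyroid hormone. Leaving out control 1 moved Ppargc1b to -0.046 and Ppara to 0.067, and Dio2 became 0.16 without control 2 and 0.11 without mutant 2. Acadm, an enzyme of fatty acid oxidation, differed by 0.41 (adjusted p = 0.717), and by 0.21 to 0.74 with single arrays left out, the lowest without control 2 and the highest without control 1. It passed only without control 1 and mutant 2 together, with a difference of 0.59 (adjusted p = 0.0450). That pair was picked because earlier results showed it high, and 4.83% of all genes passed without it.

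**Figure D3:**
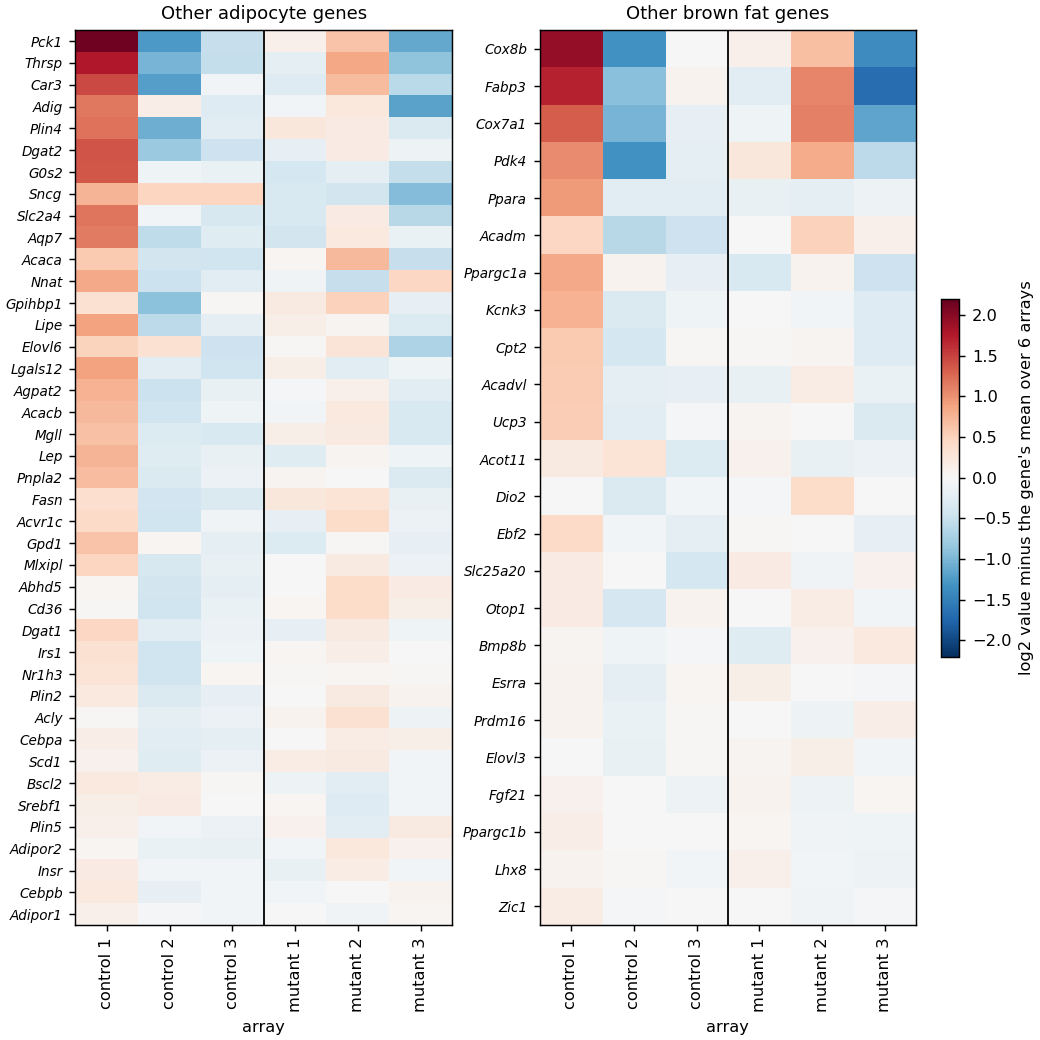
Log2 values of the 41 other adipocyte genes and 24 other brown fat genes on each array (columns), each minus the gene's mean over the 6 arrays and ordered by spread from top to bottom; red is above and blue below that mean. The control 1 column is red for most of the widely spread genes, and Sncg is the one near the top that is above its mean on all 3 controls and below it on all 3 mutants.

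Candidates for likeness to the set were 961 genes in no list here with an SD of at least 0.5 over the arrays. Certain kinds of symbol, such as those starting with Gm, LOC, Mir or Olfr, were dropped first, so not every such gene was ranked. Among these candidates, the 8 most like the mean of the set were Srl, Arxes2, Myom1, Hjv, Cyp2e1, Itgb1bp2, Nrap and Doc2g. Their Pearson r with that mean over the 6 arrays lay between 0.98 and 0.99. Leaving out any single array kept it between 0.950 and 0.998. The 8 were picked by this same r on the same arrays, so high values follow from the choice and are no separate support. Srl (0.99), the gene of the calcium-binding protein sarcalumenin of muscle, read 8.31, 5.84 and 6.58 in controls and 6.59, 7.76 and 6.19 in mutants. Arxes2 (0.99), named for its expression in adipocytes, read 7.96, 6.46 and 6.70 against 6.90, 7.68 and 6.64. Myom1, Nrap and Itgb1bp2 encode proteins of striated muscle.

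Cardiac muscle, known from the wall of the pulmonary veins, moved with the same arrays. Its 12 markers, all measured, averaged 10.8, 8.41 and 9.09 on the control arrays and 9.30, 10.6 and 8.02 on the mutant arrays. The 9 fat genes averaged 9.44, 7.21 and 7.70 and then 7.93, 8.74 and 7.55. For all 12 cardiac markers control 1 led the controls and mutant 2 the mutants. Myh6, the atrial myosin heavy chain gene, read 11.2 and 10.8 on those arrays and between 7.33 and 9.38 on the others. The part of cardiac muscle in the values of Lpl, Fabp3, Cox8b and Cox7a1 was not tested.

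Endothelial markers, all 10 measured, averaged 9.34, 8.70 and 9.10 on the control and 9.04, 9.30 and 8.64 on the mutant arrays. Control 1 and mutant 2 were again the highest of their groups, over a narrower range than for fat, and led for 5 of the 10 genes against 15.7% of all genes. Endothelium is one of the places where Fabp4 and Cd36 are active, and its part in their values was not tested. Airway epithelial markers, all 10 measured, averaged 9.84 to 10.2 and 9.78 to 10.4, and smooth muscle markers, all 7 measured, 10.7 to 11.1 and 10.6 to 11.1. Markers of adipose stroma, 7 of 8 measured, averaged 7.77 to 8.24 in controls and 7.95 to 8.20 in mutants. Mesothelial markers, all 6 measured, averaged 6.93 to 7.80 and 6.39 to 7.45. Control 1 led the controls for 7 of 7 stroma, 7 of 7 smooth muscle, 5 of 6 mesothelial and 4 of 10 airway epithelial markers. Mutant 2 led the mutants for 3, 0, 2 and 2 of these markers, in that order. Over all 19938 genes, control 1 led the controls for 8599 and mutant 2 led the mutants for 6885. B and plasma cell markers, 8 of 10 measured, were lowest among controls on control 1, at 6.59 against 9.64 and 9.56, and highest among mutants on mutant 2, at 8.002 against 5.96 and 6.26. Among controls, control 1 was thus high in fat and low in B cell genes, whereas among mutants, mutant 2 was high in both. The log2 scale has no true zero and no marker could be called absent.

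**Figure D4:**
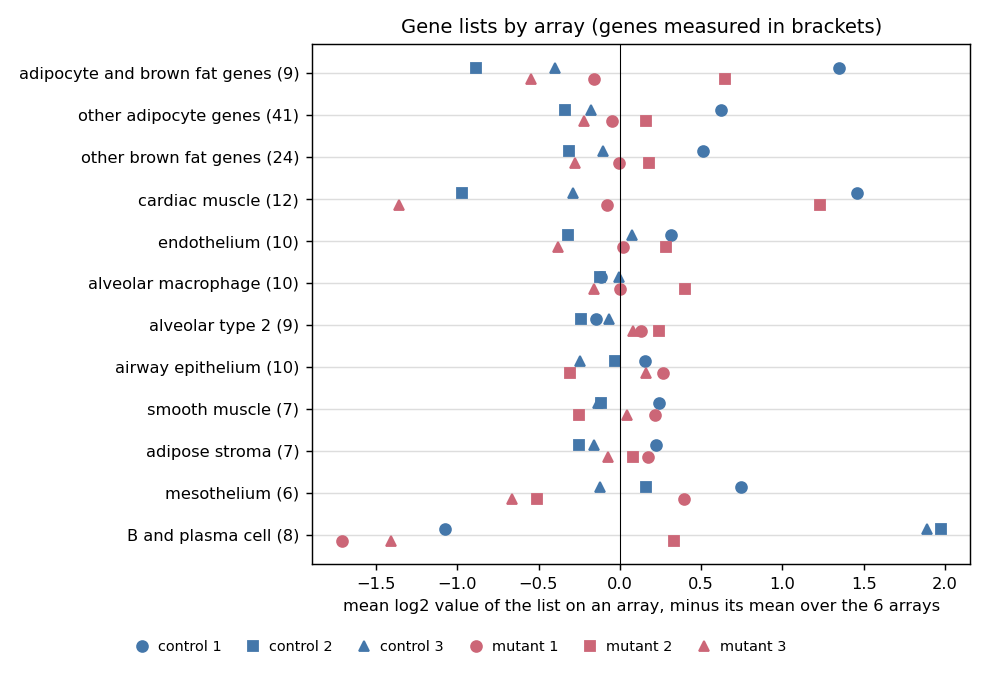
Mean log2 value of each gene list on each array, minus its mean over the 6 arrays (horizontal axis), for the 9 fat genes and 11 other lists; blue symbols are control and red symbols mutant arrays. Control 1 and mutant 2 lie farthest right within their groups for the fat genes and for cardiac muscle, where control 1 averaged 10.8 and mutant 2 averaged 10.6.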

How the data were processed

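Total RNA from 6 airway samples was measured on 1 Affymetrix array each. Per the labels, RNA was amplified before labelling. The authors deposited 1 log2 value per probe set and array, made with oligo and RMA per the submitters' processing notes, which also list limma. Tool versions are unknown here. RMA corrects background, brings arrays to one distribution and compresses dim differences. No batch could be tested, since the labels give none.

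Of 35556 rows, 21789 named 1 gene, and the row with the highest mean was kept. Mutant and control were compared in limma 3.58.1 (R 4.3.3; lmFit, eBayes, two-sided) on all genes, with genotype as the only term and no filter. P-values were Benjamini-Hochberg adjusted over all 19938 genes at a threshold of 0.05. The fit was tested on simulated data, in which each gene varied independently of the others. That test does not cover genes that vary together over the arrays, as most of the fat genes did. Promoters were searched in Python 3.11.15.

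Genes named were the 10 of the set and the targeted genes. From each fat list came the 5 with the smallest p and the 3 with the largest SD. The 8 most like the set among the 961 candidates were also named. Markers were named as values only. Members and lists were chosen with earlier results of these data known. The alternatives were array weights, the replicate block, a filter dropping the 40% of genes with the lowest means, quantile normalisation again, centring of arrays on their medians, an intensity trend, the mean of a gene's rows, each array left out, and control 1 and mutant 2 left out together, a pair picked because earlier results showed them high.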

Additional observations from a re-analysis of the deposited data

How the results depend on the processing

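None of the 9 fat genes passed limma's adjusted test under any of the 14 alternatives. All genes called numbered 53, and 52 to 67 under quantile normalisation, median centring, the filter, which kept 8 of the 9 fat genes, and the mean of rows. They became 0 with the replicate block (1945 at an unadjusted p under 0.05), 291 with array weights, 82 with an intensity trend, 963 without control 1 and mutant 2, and 9 to 388 with single arrays left out. The replicate numbers share no stated batch, and deviations of same-numbered arrays correlated at 0.14, -0.09 and -0.04. Of the other adipocyte genes 1 was called with array weights and 1 without control 1 and mutant 2, and of the other brown fat genes 1 was called without them.

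Several differences changed sign. Retn became -0.15 with array weights. Without control 1 and mutant 2 together the values were 0.39 for Adipoq, 0.22 for Plin1, 0.053 for Cidec, 0.024 for Ucp1, 0.37 for Pck1, 0.23 for Thrsp, 0.20 for Car3, 0.084 for Ppara and 0.030 for Cox8b. With single arrays left out they ranged from -0.75 to 0.83 for Adipoq, -0.60 to 0.77 for Retn, -0.89 to 0.47 for Plin1, -0.91 to 0.29 for Cidec, -0.63 to 0.46 for Lpl, -0.24 to 0.69 for Fabp4, -1.17 to 0.63 for Ucp1 and -0.044 to 0.70 for Cidea. In the lists they ranged from -0.95 to 0.75 for Pck1, -0.69 to 0.69 for Thrsp, -0.75 to 0.57 for Car3, -0.52 to 0.067 for Ppara, -1.17 to 0.46 for Cox8b, -1.25 to 0.14 for Fabp3 and -0.67 to 0.55 for Cox7a1. The cause was not tested.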
